A study of Mus musculus with 16 samples.

Results

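The genes described here are interferon-inducible genes together with the interferon regulatory factor (IRF), STAT and PARP families, the Janus kinases and the SOCS inhibitors, as they were measured in mouse peritoneal macrophages (PMs). They were chosen by gene symbol alone: guanylate-binding proteins (GBP), immunity-related GTPases (IRG), the PYHIN family on chromosome 1, OAS, Slfn, Samd9 and Samhd1 genes, Mx2, Isg20, Zbp1, Cmpk2, Sp100, Parp, Irf, Irf2bp, Stat, Jak, Tyk2 and Socs genes, with Irf7, Isg15, Mx1, Rsad2 and Oasl1 left out. Of the 4943 genes that had at least 1 merged m6A peak, 61 met this rule, and they carried 181 of the 7069 peaks. The input filter kept 60 of them, Gm4841 being the exception, and 180 of their peaks were tested. No peak of Stat3, Irf9 or Tyk2 was in the table, so these central members of the pathway were not analysed here.

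PMs were lavaged from the peritoneal cavity of young adult WT mice and Adap-/- littermates, which lack the adaptor ADAP encoded by Fyb1, 3 days after thioglycolate injection. The cells were left with mock treatment or were exposed for 6 h to LPS (1 μg/ml), which gave 4 groups of 2 replicates. From each replicate an input library and an m6A antibody (IP) library were sequenced by MeRIP-seq, 16 libraries in all. Whether a replicate was 1 mouse or a pool was not given in the sources used here, so p-values measure only the spread between these samples.

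Type I interferon is made by macrophages after LPS is sensed by TLR4, and it signals through JAK1 and TYK2 to STAT2 and IRF9, which take part in binding interferon-stimulated response elements. Interferon-gamma signals through JAK1 and JAK2 to gamma-activated sites and raises IRF1. The targets include GTPases that attack pathogen vacuoles, PYHIN proteins that bind DNA, nucleases and RNA sensors, PARP enzymes that ADP-ribosylate proteins, and SOCS proteins that switch the kinases off. m6A is a methyl mark on adenosine in mRNA, and the level in the IP over that in the input measures how much of a transcript stretch the antibody retained.

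Reads on peaks numbered 2121313 to 4325961 per input library and 5728590 to 19030373 per IP library. Fyb1 was at 244 and 257 CPM (reads scaled to library size) in WT mock input, 349 and 377 in WT LPS, 46.7 and 36.9 in Adap-/- mock and 41.5 and 35.7 in Adap-/- LPS. These sums cover 4 peaks. At positions 6609828-6610128 and 6610303-6610478 each Adap-/- input library had 0 to 5 reads, against 254 to 618 in WT. Most Adap-/- reads lay at 6614658-6649123, with 93 to 171 per library against 164 to 186 in WT. Of 9 macrophage markers, 8 had a peak, with a summed input level of 9245 to 10630 CPM in every library, and none of the 15 T and NK cell or 8 eosinophil and mast cell markers had one. Of other cell types, 1 of 11 neutrophil markers had a peak (Csf3r, 123 to 388 CPM), as did 1 of 8 B cell markers (Cd22, 32.9 to 148 CPM), 3 of 6 monocyte markers (summed 4.86 to 212.9 CPM), 1 of 9 fibroblast and mesothelium markers (Pdgfra, 27.4 to 70.8 CPM) and 2 of 8 dendritic cell markers (summed 1.28 to 18.3 CPM). The neutrophil, monocyte and dendritic cell levels were higher after LPS and the B cell level was lower in both genotypes, and their part in the LPS response of the members was not tested. The resident peritoneal macrophage marker Prg4, the only 1 of 6 with a peak, was at 27.2 to 69.6 CPM in the WT libraries and at 155 to 445 in the Adap-/- libraries, and its part in the results below was not tested. In bulk RNA, fewer cells of a type and less RNA per cell cannot be told apart.

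For these genes 3 libraries stood apart from their replicates. The input library of WT mock replicate 2 was more than 1.5-fold above replicate 1 for 17 of the 60 members (28.3%, against 5.48% of all genes tested), whereas in each other group at most 2 members were. The IP libraries of WT mock replicate 1 and Adap-/- mock replicate 2 held high levels of LPS-raised transcripts. Over the 153 peaks of members raised by more than 2 on the log2 scale, their summed IP level was 55.2% and 50.5% of that in the LPS IP libraries of the same genotype, against 8.0% and 10.0% for the other WT and Adap-/- mock IP libraries. The matching input libraries did not show this, with summed levels of 7866 and 8779 CPM against 174800 to 236200 CPM after LPS. Counts of calls by adjusted p that rest on these libraries are given with and without them, and values of single genes and families mostly with them.

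LPS raised most of these genes in both genotypes. In WT PMs 50 of 60 members rose and 5 fell (edgeR quasi-likelihood test, adjusted p under 0.05), while 30.2% of all genes tested rose and 28.9% fell. The median log2 fold change was 3.9 for the members and −0.03 for all genes. In Adap-/- PMs 48 members rose and 5 fell, against 28.5% and 26% of all genes, with a median of 3.89 for the members. The 48 were all among the 50 of WT PMs, and the 5 that fell were the same in both genotypes: Ifi30, Irf2bp2, Irf2bpl, Socs6 and Stat6. Jak1 and Socs7 passed the test in WT PMs only, and that difference did not pass the test of the interaction. Irf2bp1, Irf3, Isg20l2, Socs4 and Socs5 were not called in either genotype.

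**Figure D1:**
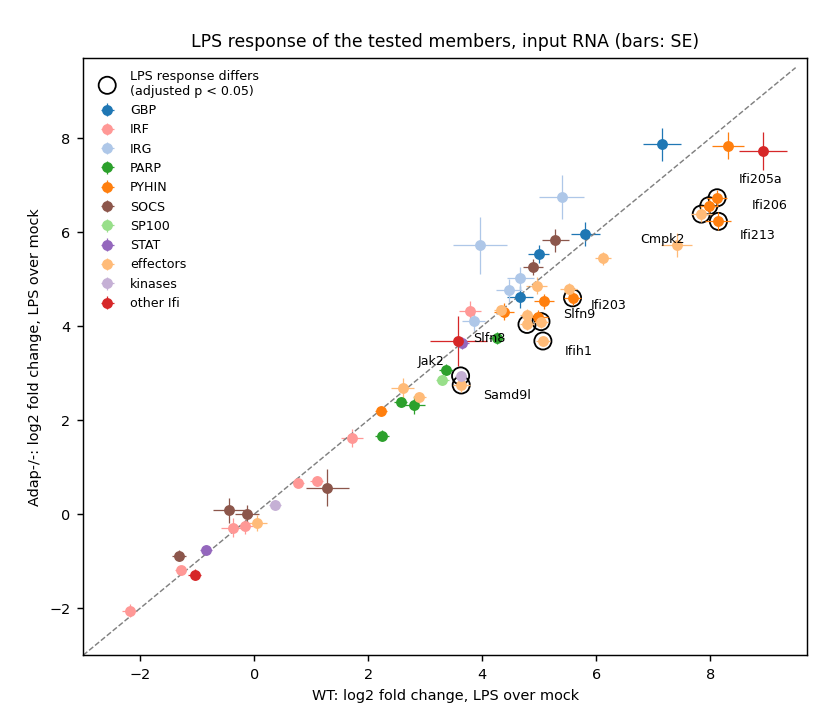
Input RNA of the tested members shown, with the log2 fold change of LPS over mock in WT PMs on the x axis and in Adap-/- PMs on the y axis. Points are genes coloured by family, bars are standard errors, the dashed line marks equal responses, and rings mark the 10 genes whose responses differed between the genotypes, all of which lie below the line.

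The PYHIN genes lie side by side on chromosome 1 (chr1:173296051-173859321, GRCm39), and all 9 rose in both genotypes, with a median log2 fold change of 5.59 in WT and 4.60 in Adap-/- PMs. Their proteins bind DNA or regulate transcription. Ifi205a was at 17.9 and 26.1 CPM in WT mock, 40.4 and 40.3 in Adap-/- mock, 6421 and 5834 in WT LPS and 4378 and 4205 in Adap-/- LPS libraries. Its LPS libraries lay above all mock libraries, and within each treatment the genotypes did not overlap. Ifi206 was at 12 and 14.8 CPM in WT mock, 33.3 and 27.4 in Adap-/- mock, 3359 and 3409 in WT LPS and 3005 and 2728 in Adap-/- LPS libraries. Ifi213 was at 5.12 and 1.35 CPM in WT mock and 12.9 and 8.98 in Adap-/- mock, and rose to 973 and 903 in WT LPS and 848 and 786 in Adap-/- LPS libraries. For both genes the Adap-/- libraries were the higher under mock and the lower after LPS. Ifi208 had so few mock reads, 5 over both WT mock libraries, that its rise is best given as a ratio of scaled reads, 336 in WT PMs (95% exact interval of counting error 143 to 1035) and 244 in Adap-/- PMs (104 to 752). Ifi207 rose least of the 9, by 2.22 in WT and 2.2 in Adap-/- PMs on the log2 scale. Since these paralogs are close in sequence, the counting may have split reads between them, and the level of a single member is uncertain.

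To show what the family shares outside the RNA measurements, promoters were taken from RefSeq (GRCm38.p6, another build than that of the peaks), as windows of 300 bases with 250 before the start. They matched 47 of the 61 members by symbol. A core of the interferon-stimulated response element, that is TTTC and TTTC with any 2 bases between them or the reverse complement, GAAA and GAAA with any 2 bases between, was searched on both strands. It was found in 24 of the 47 members (51.1%) and in 3.99% of all 27025 genes with a window. All 7 matched PYHIN genes held it. The 90 bases before the start are shown for 6 of them, 5′ to 3′ on the strand of the gene, with the match in capitals.
Ifi203 (chr1:173942493-173942582, minus strand): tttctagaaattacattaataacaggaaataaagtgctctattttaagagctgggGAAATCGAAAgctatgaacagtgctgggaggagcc
Mndal (chr1:173880188-173880277, minus strand): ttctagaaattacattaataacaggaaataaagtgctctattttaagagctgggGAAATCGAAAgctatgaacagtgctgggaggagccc
Ifi206 (chr1:173491319-173491408, minus strand): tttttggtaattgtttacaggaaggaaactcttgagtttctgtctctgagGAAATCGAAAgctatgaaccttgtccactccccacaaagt
Ifi208 (chr1:173673575-173673664, plus strand): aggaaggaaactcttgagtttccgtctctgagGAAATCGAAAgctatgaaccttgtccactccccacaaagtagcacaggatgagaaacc
Ifi213 (chr1:173599273-173599362, minus strand): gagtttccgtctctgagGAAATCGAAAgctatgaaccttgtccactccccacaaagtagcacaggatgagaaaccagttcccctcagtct
Ifi211 (chr1:173913047-173913136, minus strand): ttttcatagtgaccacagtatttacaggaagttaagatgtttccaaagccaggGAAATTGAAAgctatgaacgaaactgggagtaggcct
In 5 of these 6 the match reads GAAATCGAAA, and in Ifi211 it reads GAAATTGAAA. The stretches of Ifi206, Ifi208 and Ifi213 share the letters around the match, as do those of Ifi203 and Mndal. A match is a description of the letters and no measure of binding.

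The GBP and IRG families are large GTPases that act on the membranes around intracellular pathogens. All 4 GBP genes (chr3:142202695-142343769, GRCm39) rose in both genotypes, with medians of 5.40 in WT and 5.74 in Adap-/- PMs. Gbp5 was at 68.8 and 183 CPM in WT mock, 64.0 and 73.8 in Adap-/- mock, 17745 and 18036 in WT LPS and 15920 and 16279 in Adap-/- LPS libraries. Gbp2 was at 685 and 1267 CPM in WT mock, 781 and 890 in Adap-/- mock, 25146 and 24352 in WT LPS and 21736 and 19300 in Adap-/- LPS libraries. For both genes WT mock replicate 2 was the highest mock library by a wide margin. The 5 tested IRG genes rose as well, with medians of 4.47 and 5.02. WT mock replicate 2 was above replicate 1 by 0.75 to 1.40 on the log2 scale for the GBP genes. For the tested IRG genes it was above by 0.83 to 2.82. This lowers the WT medians of both families. Medians without that library are not given, so the order of the genotypes is not established. Irgm1, which acts in autophagy, was at 382 and 680 CPM in WT mock, 334 and 296 in Adap-/- mock, 8060 and 7229 in WT LPS and 5699 and 5122 in Adap-/- LPS libraries. Iigp1 was at 4.09 and 31.3 CPM in WT mock and 5.77 and 3.16 in Adap-/- mock, and at 640 and 828 in WT LPS and 546 and 410 in Adap-/- LPS libraries. Its WT mock replicates differed more than those of any other group. Igtp and Irgm2 share 3 peaks, which are all 3 peaks of Igtp and 3 of the 5 of Irgm2. The whole count of Igtp is therefore also in that of Irgm2, and their values and calls are not independent.

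The same response element core was present in the windows of all 4 GBP genes and all 3 matched IRG genes. Stretches of 90 bases before the start are shown for 3 GBP and 3 IRG genes, because the match lies close to the start in each, with the matches in capitals.
Gbp2 (chr3:142620573-142620662, plus strand): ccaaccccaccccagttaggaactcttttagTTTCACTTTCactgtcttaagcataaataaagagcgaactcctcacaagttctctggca
Gbp3 (chr3:142559954-142560043, plus strand): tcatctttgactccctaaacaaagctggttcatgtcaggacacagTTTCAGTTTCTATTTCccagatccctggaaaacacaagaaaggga
Gbp7 (chr3:142530246-142530335, plus strand): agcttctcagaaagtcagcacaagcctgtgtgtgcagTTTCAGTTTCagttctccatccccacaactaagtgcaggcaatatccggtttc
Igtp (chr11:58199466-58199555, plus strand): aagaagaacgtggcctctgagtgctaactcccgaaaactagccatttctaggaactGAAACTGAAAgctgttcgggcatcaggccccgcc
Irgm1 (chr11:48871421-48871510, minus strand): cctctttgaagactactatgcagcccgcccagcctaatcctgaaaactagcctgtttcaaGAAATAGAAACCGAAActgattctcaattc
Irgm2 (chr11:58214887-58214976, plus strand): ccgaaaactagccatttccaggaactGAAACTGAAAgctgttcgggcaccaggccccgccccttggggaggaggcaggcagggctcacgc
The matches of Gbp3 and Irgm1 are overlapping pairs. TTCNNNGAA, a gamma-activated site core that was searched in the same windows, was present in 13 of the 47 members (27.7%) and in 9.55% of all genes. Gbp5, Gbp7, Igtp, Irgm2, Irf2 and Parp11 held both cores, the latter not marked above, and Irf1 held only the latter, at the far end of the 90 bases.
Irf1 (chr11:53769924-53770013, plus strand): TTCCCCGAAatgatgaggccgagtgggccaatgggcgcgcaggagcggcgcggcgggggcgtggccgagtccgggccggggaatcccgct
Of the 39 matched members that rose in WT PMs, 24 held the response element core and 12 the gamma-activated site core. Of the 8 matched members that did not rise, 0 and 1 did, and a window without the letters says nothing about the rest of the gene.

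The 14 effector genes, among them nucleases, restriction factors, nucleic acid sensors and the nucleotide kinase gene Cmpk2, rose in 13 cases in each genotype, the exception being Isg20l2, a nuclease of ribosomal RNA maturation. Cmpk2, whose product acts in mitochondria, was at 89.5 and 117 CPM in WT mock, 119 and 96.6 in Adap-/- mock, 23630 and 23802 in WT LPS and 8955 and 9013 in Adap-/- LPS libraries. Its mock libraries overlapped between the genotypes, and after LPS both Adap-/- libraries lay far below both WT libraries. Ifih1, the sensor MDA5 of long double-stranded RNA, was at 21.7 and 23.2 CPM in WT mock, 44.9 and 39.3 in Adap-/- mock, 726 and 780 in WT LPS and 537 and 545 in Adap-/- LPS libraries. Isg20, an RNA exonuclease, was at 21.7 and 25.6 CPM in WT mock and 24.4 and 20.9 in Adap-/- mock, and at 1739 and 1544 in WT LPS and 1039 and 938 in Adap-/- LPS libraries. Zbp1, a sensor of Z-form nucleic acid that can start necroptosis, rose by 4.95 ± 0.18 (SE) on the log2 scale in WT and 4.86 ± 0.18 in Adap-/- PMs. Samhd1, which degrades deoxynucleotides, rose by 2.61 ± 0.20 and 2.68 ± 0.22. The ratio of scaled reads was 182 for Mx2 in WT PMs (95% interval 70.6 to 669), which had 4 reads over both WT mock libraries. Ifi44, outside these 14, had 1 read in WT mock and 2 in Adap-/- mock PMs, with ratios of 620 (111 to 24543) and 242 (66.6 to 2007), so its rise is certain in direction and poorly known in size.

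The Slfn genes lie together on chromosome 11 (chr11:82842928-82911636, GRCm39). Slfn9 was at 13.6 and 15.4 CPM in WT mock, 17.3 and 16.7 in Adap-/- mock, 455 and 493 in WT LPS and 298 and 285 in Adap-/- LPS libraries. Slfn8 was at 110 and 123 CPM in WT mock, 148 and 157 in Adap-/- mock, 3114 and 3333 in WT LPS and 2478 and 2530 in Adap-/- LPS libraries. For both genes the genotypes did not overlap in either treatment. The promoters of this pair are shown because both genes changed less in Adap-/- PMs, and both hold the same match, TTTCGTTTTC.
Slfn8 (chr11:83020811-83020900, minus strand): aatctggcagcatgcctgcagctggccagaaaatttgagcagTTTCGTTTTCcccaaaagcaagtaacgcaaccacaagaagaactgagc
Slfn9 (chr11:82991831-82991920, minus strand): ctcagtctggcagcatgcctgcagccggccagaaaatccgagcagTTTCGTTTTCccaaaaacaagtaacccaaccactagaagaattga
For Cmpk2, Samd9l and Jak2, which also responded less in Adap-/- PMs, neither core was present in the window.

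Among the PARP genes all 5 rose, with medians of 2.8 in WT and 2.38 in Adap-/- PMs. Parp14, a mono-ADP-ribosyltransferase, was at 287 and 310 CPM in WT mock, 318 and 382 in Adap-/- mock, 5541 and 5866 in WT LPS and 4573 and 4797 in Adap-/- LPS libraries. Its neighbour Parp9 rose by 3.36 ± 0.12 (SE) and 3.07 ± 0.12 on the log2 scale. Sp100, a nuclear body protein, rose by 3.30 ± 0.12 and 2.85 ± 0.12.

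Signalling members moved in both directions. Stat2, a subunit of the interferon-activated transcription factor, was at 51.7 and 61.2 CPM in WT mock, 53.5 and 47.6 in Adap-/- mock, 647 and 764 in WT LPS and 618 and 644 in Adap-/- LPS libraries, and it rose by 3.64 on the log2 scale in both genotypes (SE 0.12 in WT and 0.13 in Adap-/- PMs). Stat6, which transmits interleukin-4 signals, fell by 0.84 ± 0.11 in WT and by 0.75 ± 0.11 in Adap-/- PMs. Jak2 was at 53.0 and 54.2 CPM in WT mock, 86.6 and 88.1 in Adap-/- mock, 648 and 670 in WT LPS and 667 and 676 in Adap-/- LPS libraries. The genotypes were apart under mock and close after LPS. Jak1 rose by 0.37 ± 0.11 in WT PMs and differed by 0.20 in Adap-/- PMs, where it was not called.

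Of the 8 IRF and IRF2BP genes, 4 rose and 2 fell in each genotype. Irf1 was at 850 and 1385 CPM in WT mock, 676 and 714 in Adap-/- mock, 16100 and 14822 in WT LPS and 14535 and 13411 in Adap-/- LPS libraries. Irf8, needed for macrophage development, rose by 1.71 ± 0.20 (SE) in WT and 1.62 ± 0.20 in Adap-/- PMs on the log2 scale. Irf5, which drives inflammatory cytokine genes, rose by 0.78 ± 0.10 and 0.67 ± 0.10. Irf3, which is activated by phosphorylation, differed by −0.37 ± 0.20 in WT PMs and was not called (adjusted p = 0.125 from edgeR). Irf2bpl, a ubiquitin ligase, was at 212 and 185 CPM in WT mock and 40.7 and 47.0 in WT LPS libraries and fell by 2.18 ± 0.13, and Irf2bp2, a corepressor of IRF2, fell by 1.29 ± 0.10. Of the 6 SOCS genes, Socs1 and Socs3, the inhibitors of the Janus kinases that interferon and cytokines induce, rose by 5.29 ± 0.24 and 4.89 ± 0.17 in WT and by 5.83 ± 0.25 and 5.26 ± 0.18 in Adap-/- PMs. WT mock replicate 2 was above replicate 1 by 1.32 for Socs1 and 0.63 for Socs3 on the log2 scale, which lowers these WT values. Socs6 fell by 1.32 ± 0.12 and 0.88 ± 0.12. Ifi30, a thiol reductase of antigen processing, fell by 1.05 ± 0.11 and 1.29 ± 0.11.

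**Figure D2:**
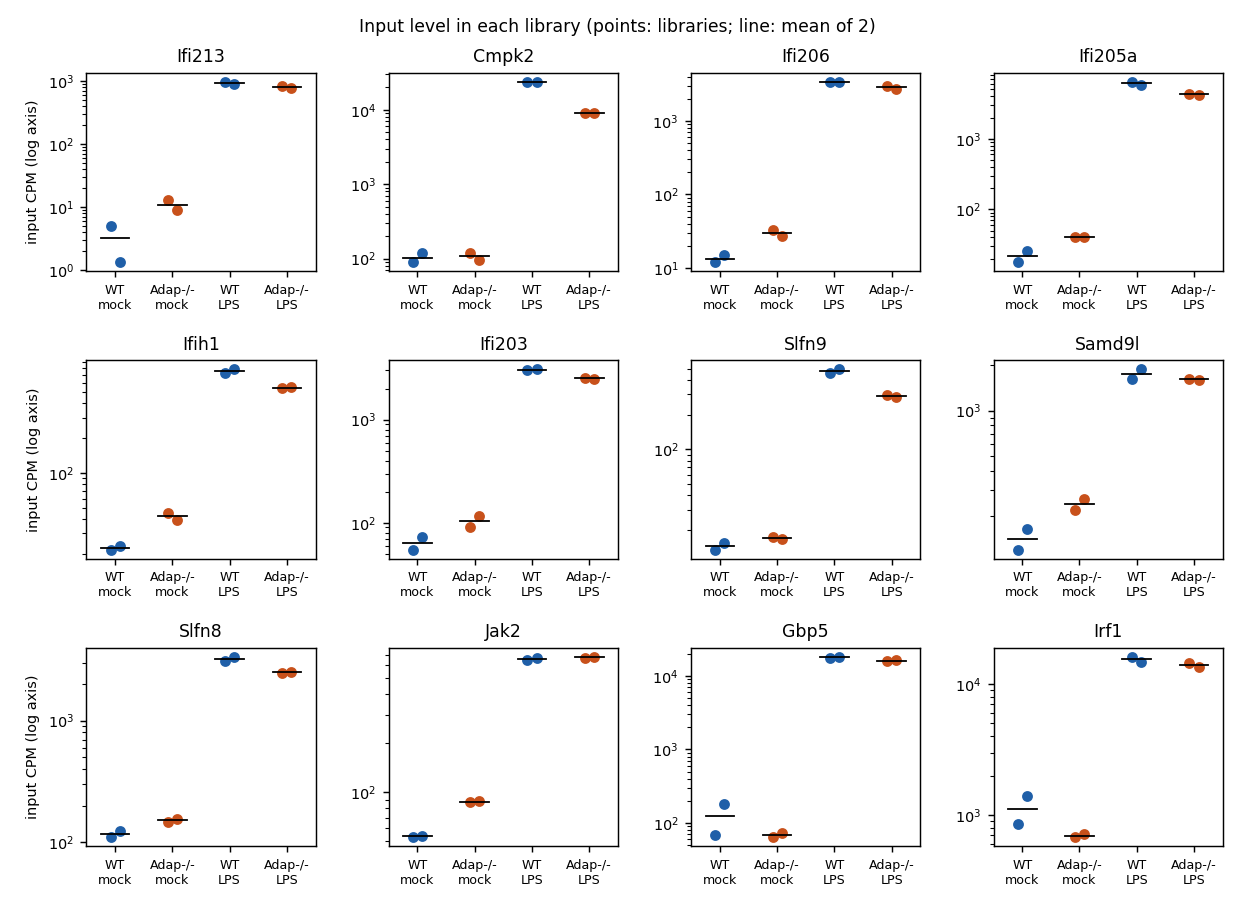
Input level in CPM (log axis) of the 10 members whose LPS response differed between the genotypes and of Gbp5 and Irf1, in each library. Points are libraries and lines are the means of 2 replicates. The LPS libraries lie above the mock libraries for every gene, and for Cmpk2 the Adap-/- LPS libraries at 8955 and 9013 lie below the WT LPS libraries at 23630 and 23802.

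The effect of ADAP deficiency after LPS was tested next, with the genotypes compared within LPS-stimulated PMs. Of 60 members, 16 were lower in Adap-/- PMs and 1 was higher, against 9.78% lower and 6.03% higher among all genes tested. The median difference was −0.24 on the log2 scale for the members and −0.01 for all genes. The replicates did not overlap for 45 of 60 members, and 40 of these were lower in Adap-/- PMs. Of all genes, 29.8% were non-overlapping and lower and 26.8% were non-overlapping and higher. By family, 6 of 9 PYHIN genes and 7 of 14 effector genes were lower, as were Irf5, Irf2 and Ifi30. None of the 4 GBP, 5 IRG, 5 PARP and 6 SOCS genes passed the test. The median difference was −0.50 for the IRG genes, close to the −0.44 of the PYHIN genes, so the lack of calls does not show that the 2 families differ.

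Cmpk2 had the largest difference among the members, at −1.40 ± 0.14 (SE, 2.64-fold lower, adjusted p = 1.29e-05 from edgeR). Isg20 was lower by a log2 difference of −0.73 ± 0.10 (adjusted p = 0.000284), Slfn9 by −0.70 ± 0.10 (0.000216), Mx2 by −0.63 ± 0.13 (0.00482) and Ifih1 by −0.48 ± 0.09 (0.0025), all from edgeR. The PYHIN genes called were Ifi208, Ifi205a, Ifi204, Mndal, Ifi211 and Ifi207, with log2 differences from −0.53 to −0.32. Irf5 differed by −0.43, Ifi30 by −0.39, Irf2 by −0.37, Slfn8 by −0.36 and Oas1g by −0.34. Irf2bp2 was the only member that was higher, at 294 and 273 CPM in Adap-/- LPS against 196.8 ± 15.6 (SD, n = 2) in WT LPS libraries (log2 difference 0.53 ± 0.10). Only Cmpk2 differed by more than 1 on the log2 scale. Without any 1 of the 4 LPS input libraries, between 5 and 9 members were still lower: 9 without Adap-/- replicate 1 (6.18% of all genes), 7 without Adap-/- replicate 2 (4.82%), 5 without WT replicate 1 (5.12%) and 9 without WT replicate 2 (7%). Mx2, Ifi208, Ifi205a, Ifi204, Mndal and Ifi211 each lost the call in at least 1 of these fits, and Cmpk2, Isg20, Slfn9 and Ifih1 kept it in all 4.

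**Figure D3:**
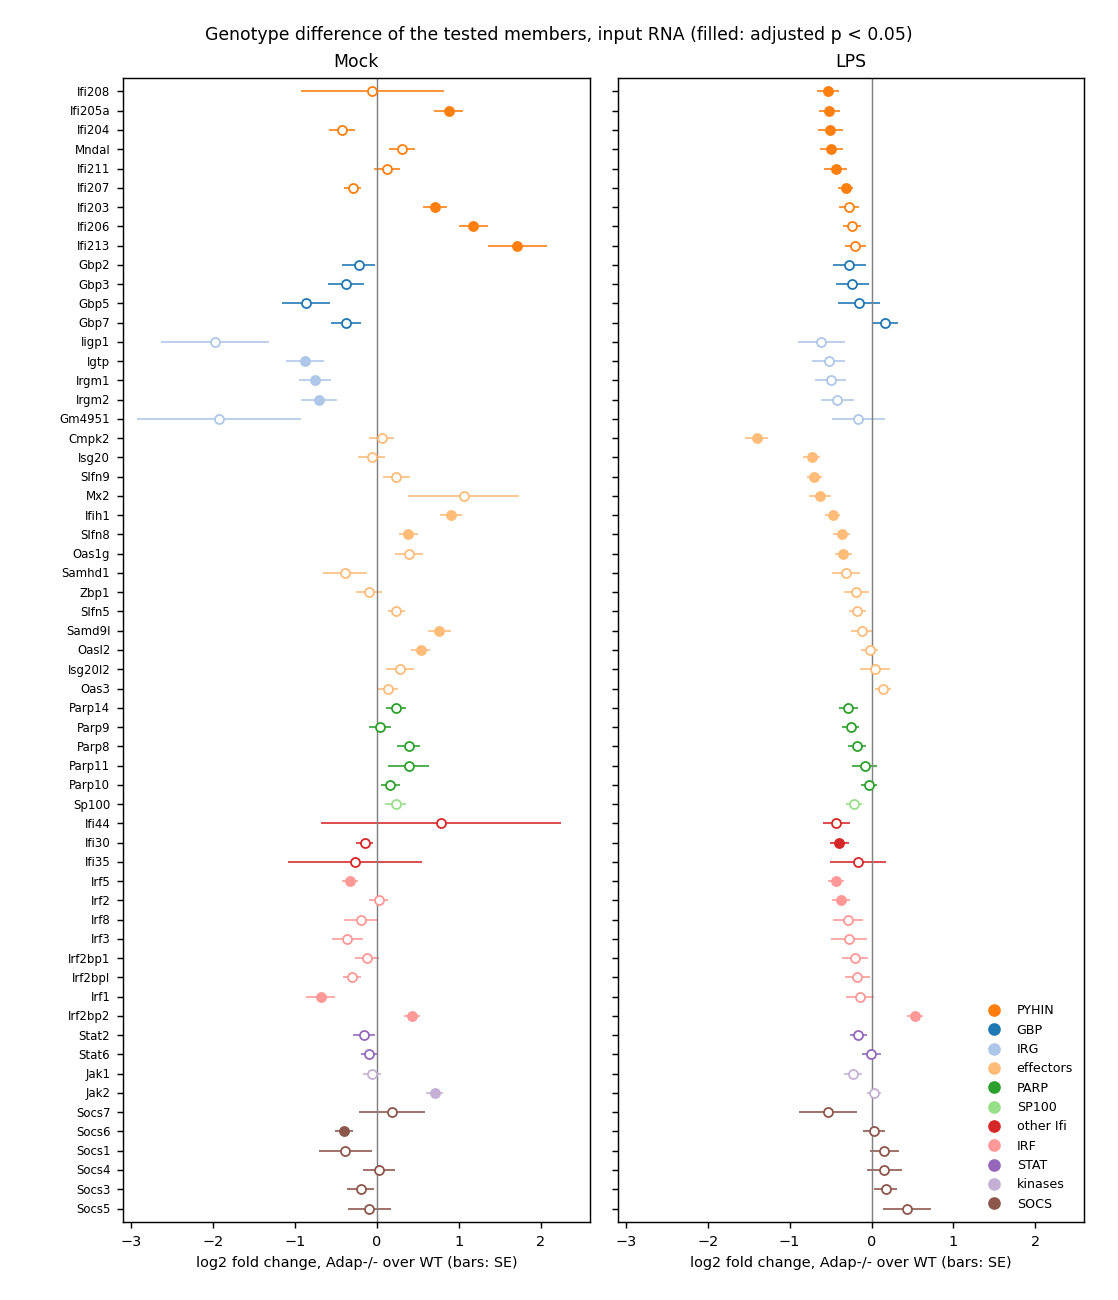
Log2 difference in input RNA between Adap-/- and WT PMs (x axis) for the tested members shown, grouped by family, under mock (left) and after LPS (right). Bars are standard errors and filled points passed an adjusted p under 0.05. Filled points lie on both sides of 0 under mock, and on the lower side after LPS except for Irf2bp2.

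Under mock treatment 10 members were higher and 7 were lower in Adap-/- PMs, against 8.71% and 8.65% of all genes tested. The higher members were led by Ifi213 at a log2 difference of 1.72 ± 0.36 (SE), Ifi206 at 1.18 ± 0.18, Ifih1 at 0.90 ± 0.14 and Ifi205a at 0.88 ± 0.18. Samd9l, an antiviral restriction factor, was higher by 0.76, Ifi203 and Jak2 by 0.71, Oasl2 by 0.53, Irf2bp2 by 0.43 and Slfn8 by 0.38. The lower members included Igtp (−0.87), Irgm1 (−0.75), Irgm2 (−0.71), Irf1 (−0.69), Socs6 (−0.40) and Irf5 (−0.32). Igtp and Irgm2 share peaks and are not independent calls.

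The number of lower calls changed with each mock library left out. WT mock replicate 2 held the highest mock level of several of these genes, and of the named lower members Socs6 and Irf5 differed little between the WT replicates, by 0.04 and 0.18 on the log2 scale. The members furthest above replicate 1 in that library were Gm4951 and Iigp1, by 2.82 and 2.79 on the log2 scale, followed by Gbp5 (1.40), Socs1 (1.32), Igtp (1.07), Ifi208 (1.06, on 5 reads over both libraries), Irgm2 (1.03), Gbp3 (1.01), Gbp2 (0.89), Irgm1 (0.83), Gbp7 (0.75) and Irf1 (0.70). Without this library 12 members were higher and 0 were lower in Adap-/- mock PMs (edgeR, against 5.15% and 3.92% of all genes), and the differences of Igtp, Irgm1 and Irgm2 shrank to −0.24, −0.28 and −0.10. Without WT mock replicate 1 instead, 9 were higher and 18 lower (8.79% and 9.5% of all genes). Leaving out Adap-/- mock replicate 1 gave 9 higher and 1 lower (6.16% and 4.92%), and leaving out Adap-/- mock replicate 2 gave 7 higher and 0 lower (3.32% and 3.07%). Over these 4 fits the number of higher members lay between 7 and 12 and that of lower members between 0 and 18.

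**Figure D4:**
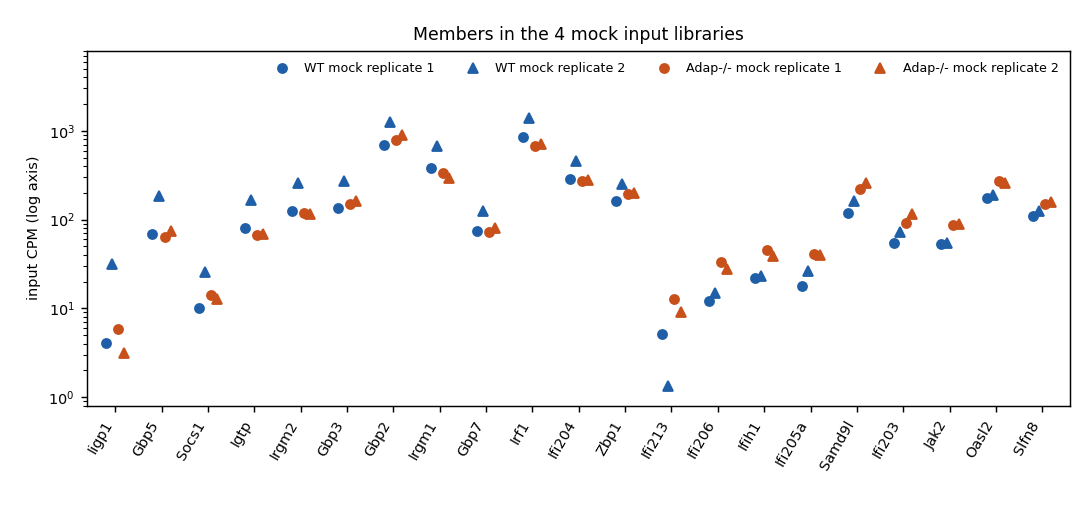
Input level in CPM (log axis) of selected members in the 4 mock libraries, with circles for replicate 1 and triangles for replicate 2 (blue WT, orange Adap-/-). From Iigp1 to Zbp1 on the left, WT mock replicate 2 lies above the other 3 libraries, and from Ifi206 to Slfn8 on the right both Adap-/- libraries lie above both WT libraries.

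Whether LPS changed a gene to a different extent in the 2 genotypes was tested as the interaction. The response was smaller in Adap-/- PMs for 10 members and larger for 0, against 1.29% and 0.358% of all genes tested. This contrast uses the same libraries as the mock and LPS comparisons, so the values are given side by side. Cmpk2 responded less by −1.46 ± 0.21 on the log2 scale (SE, adjusted p = 0.00166 from edgeR), with a genotype difference of 0.06 under mock and −1.40 after LPS. Slfn9 responded less by −0.94 ± 0.19, with 0.24 under mock and −0.70 after LPS. For Ifih1 the response differed by −1.38 ± 0.17 (adjusted p = 0.000295 from edgeR), with 0.90 under mock and −0.48 after LPS, and for Ifi205a by −1.39 ± 0.21, with 0.88 and −0.51. For Ifi213, at −1.92 ± 0.39, Ifi206, at −1.42 ± 0.21, Ifi203, at −0.98 ± 0.19, and Samd9l, at −0.88 ± 0.19, the difference under mock passed the test and that after LPS did not. The same held for Jak2, at −0.68 ± 0.14, whose level after LPS differed by 0.03. Slfn8, at −0.75 ± 0.15, passed in both treatments. Ifi213 lost its call without WT mock replicate 2, where 12 members had a smaller and 0 a larger response (1.49% and 0.374% of all genes), and without Adap-/- mock replicate 1. The count of members with a smaller response was 6 without Adap-/- mock replicate 1 (0.871% of all genes) and 5 without Adap-/- mock replicate 2 (0.498%). It was 5 without Adap-/- LPS replicate 1, Adap-/- LPS replicate 2 or WT LPS replicate 2 (0.755% in each). Cmpk2, Ifi206, Ifi205a and Ifih1 kept the call in all 8 fits without 1 input library. Without WT mock replicate 1, 9 members had a smaller and 10 a larger response (1.8% and 0.83%).

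Other genes of the pathway were followed from fixed lists. No peak was found for any of 9 interferon genes, so ligand RNA was not measured here. Of 6 receptor symbols 5 had a peak: Ifnar1 rose by 0.49 in WT and 0.28 in Adap-/- PMs, Ifnar2 by 1.66 and 1.27, and Ifngr1 differed by −1.59 and −1.48. None of the receptors differed between the genotypes after LPS, whereas under mock Ifnar2 differed by 0.40 and Il10rb by −0.62 in Adap-/- PMs. Of 22 sensor and adaptor genes 12 had a peak. In Adap-/- LPS PMs 2 were lower and 3 higher, against 9.78% and 6.03% of all genes. The lower were Tlr3, a sensor of double-stranded RNA, at a log2 difference of −0.69 and Dhx58 at −0.31. The higher were the LPS receptor genes Tlr4 (0.59) and Cd14 (0.49) and the adaptor gene Ticam2 (0.36). Under mock Ddx58 (0.85), Tlr7 (0.38) and Ikbke (0.28) were higher in Adap-/- PMs and Ticam1 (−0.48) was lower. In the interaction Ddx58 (−1.05) and Tlr3 (−1.02) had a smaller response. The list of other interferon targets was matched by symbol, and 43 matched genes were tested. Symbols such as Tgtp1, Trim30a and Ifit1 each stood for several genes, so the counts include genes that are not on the list. A predicted gene under Tgtp1, called at a log2 difference of −0.41 after LPS, is 1 of them. Of the 43, 39 rose in each genotype (30.2% and 28.5% of all genes). After LPS 15 were lower and 0 higher in Adap-/- PMs (9.78% and 6.03%), and 11 had a smaller response (1.29%). The lower genes included Rsad2 at −1.03, Isg15 at −0.75 and Mx1 at −0.77. Under mock 8 of the 43 were higher and 2 lower in Adap-/- PMs (8.71% and 8.65%).

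The m6A peaks of the members lay more often in the coding sequence (CDS) and less often at the stop codon than peaks in general, as the file annotates them. The CDS held 82 of 181 member peaks (45.3%, against 29.2% of all peaks), the stop codon 36 (19.9% against 32.7%), the start codon 27 (14.9% against 13.6%), the 3′UTR 22 (12.2% against 14.6%) and the 5′UTR 7 (3.87% against 2.0%). Member peaks were 50 to 18129 bases long with a median of 250, and 36 were longer than 1 kb.

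After LPS the IP-to-input ratio of most member peaks was below that of the average peak. The ratio was taken on the log2 scale from scaled CPM with 0.5 CPM added, and since libraries are scaled on the average peak it is relative to all peaks, not an absolute amount of m6A. The median over 180 member peaks was −0.96 and −0.94 in the WT LPS and −0.90 and −0.90 in the Adap-/- LPS samples, against 0.02 to 0.07 over all peaks. Between 34 and 42 of the 180 lay above 0. By family the median ratio after LPS was −2.39 for the GBP peaks (3 of 17 above 0), −1.78 for PYHIN (0 of 38), −0.94 for the effectors (6 of 48), −0.59 for PARP (3 of 15) and −0.56 for IRG (5 of 14). It was −0.08 for IRF (9 of 20) and 0.03 for SOCS peaks (7 of 13). By region the median was −1.15 in the CDS, where that of all peaks was 0.12, −0.93 at the stop codon, −0.90 in the 3′UTR, −0.32 in the 5′UTR and −0.31 at the start codon.

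The peaks at the 2 ends of this range, chosen after their values were seen, were of different families. The highest mean log2 ratios over the 4 LPS samples were 1.29 ± 0.22 (SD) for a CDS peak of Irf2bp1 (chr7:18738918-18739193), 1.23 ± 0.68 for the start codon peak of Irf2bp2 and 1.20 ± 0.35 for a CDS peak of Parp8 (chr13:117031239-117031614). The lowest were −4.90 ± 1.34 for a CDS peak of Oas3 (chr5:120899333-120899694), −4.79 ± 1.56 for a CDS peak of Gbp7 (chr3:142242170-142243832), −4.40 ± 1.82 for a 3′UTR peak of Iigp1 and −4.23 ± 0.50 for a CDS peak of Mx2 (chr16:97346880-97347530). The Oas3 peak had 36 to 239 IP reads per LPS library, and the Gbp7 peak 57 to 289.

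**Figure D5:**
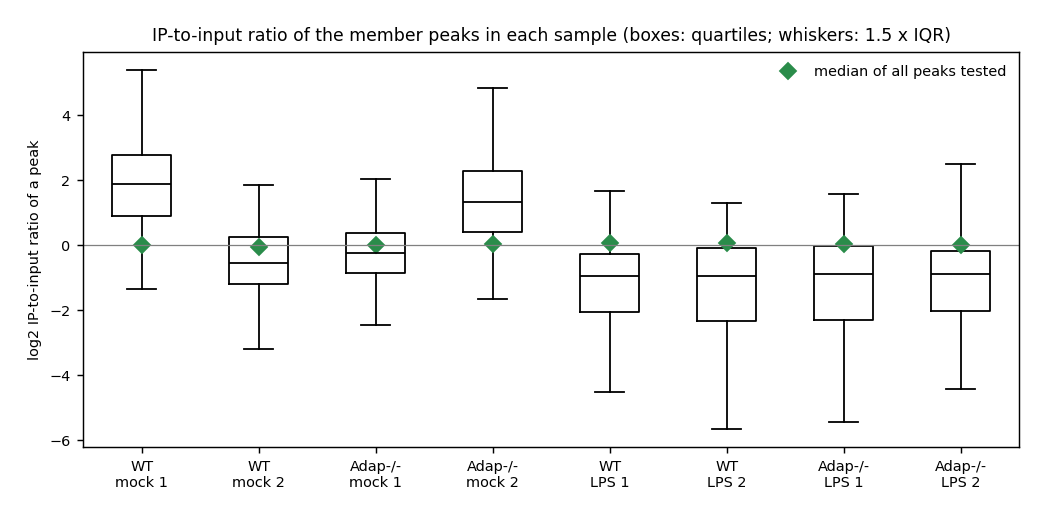
Log2 IP-to-input ratio of 180 member peaks in each sample, with boxes for the quartiles and whiskers at 1.5 times the interquartile range, and the median of all peaks tested as diamonds. The boxes of WT mock 1 and Adap-/- mock 2 lie above 0 (medians 1.90 and 1.36) and those of the other 6 samples have medians from −0.96 to −0.25, while the diamonds stay near 0.

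The ratio in mock samples differed between replicates more than between treatments. The median over member peaks was 1.90 and −0.55 in the WT mock samples and −0.25 and 1.36 in the Adap-/- mock samples. With all 16 libraries, 0 of 180 member peaks were called between LPS and mock in either genotype (edgeR, against 0% of all 7058 peaks), with 90 member peaks at an unadjusted p under 0.05 in WT and 77 in Adap-/- PMs (10.8% and 11.5% of all peaks). DESeq2 called 47 and 20 member peaks lower on the same counts, against 3.83% and 1.57% of all peaks to which it gave an adjusted p. By the second rule, an unadjusted p under 0.05 and an absolute log2 fold change above 1, 87 member peaks were lower and 1 higher in WT (5.13% and 2.69% of all peaks), and 69 lower and 2 higher in Adap-/- PMs (4.56% and 2.44%).

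When the IP libraries of WT mock replicate 1 and Adap-/- mock replicate 2 were left out, so that each mock group had 1 IP library assumed to vary like the others, 34 member peaks in 18 genes were lower after LPS in WT PMs and 0 were higher (edgeR, against 1.73% and 0.538% of all peaks). In Adap-/- PMs 40 peaks in 19 genes were lower and 0 higher (2.41% and 1.4%). The median log2 fold change of member peaks was −0.52 in WT and −0.62 in Adap-/- PMs, against −1.86 and −1.75 with all libraries. The median change was thus smaller, while more peaks were called. The 2 libraries left out were chosen with earlier results of these data known, and their IP levels are part of the ratio tested. The counts of calls therefore depend on that choice and are no separate support for lower ratios after LPS. The Cmpk2 peak over the stop codon (chr12:26521095-26529778) had a log2 ratio of 0.90 in the WT mock and 1.23 in the Adap-/- mock sample kept, of −1.34 and −1.40 in WT LPS and of −1.40 and −1.47 in Adap-/- LPS samples, and fell by 2.52 ± 0.21 (SE) and 2.86 ± 0.21. The stop codon peak of Ifi206 (chr1:173296200-173301372) fell by 3.88 ± 0.28 and 3.44 ± 0.24, that of Ifi205a (chr1:173839763-173844819) by 2.96 ± 0.28 and 2.74 ± 0.25, and the log2 fold change of the Isg20 start codon peak was −2.97 ± 0.42 and −3.18 ± 0.40. That of the Mx2 CDS peak was −5.68 ± 0.76 and −4.27 ± 0.69, on 1 and 4 input reads in the mock samples kept. A filter of at least 10 input reads in every library compared, added after seeing the data, kept 140 and 147 member peaks, of which 20 and 35 were lower and 0 higher (1.33% lower and 0.448% higher, and 2.04% and 1.55%, of all peaks). Cmpk2, Ifi206, Ifi205a, Isg20 and Mx2 all rose in input RNA, and the part of the transcript level in the ratio was not tested.

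Between the genotypes no member peak was called after LPS (0 of 180, against 0.0142% of all peaks lower and 0% higher), under mock (0%) or in the interaction (0%) by edgeR, DESeq2 or the paired fit. At an unadjusted p under 0.05, 2 peaks differed after LPS, 1 under mock and 1 in the interaction (7.13%, 2.1% and 3.23% of all peaks). Without the 2 mock IP libraries, 27 differed under mock and 25 in the interaction (3.84% and 7.2%), with 0 called, and with only the 8 libraries compared 23 differed after LPS (11.5%), again with 0 called. With all libraries and a log2 difference above 1 as well, 1 peak was higher and 0 lower after LPS (1.32% and 2.82% of all peaks), 1 and 0 under mock (0.68% and 0.595%), and 0 and 1 in the interaction (1.02% and 1.74%). The 2 after LPS were a CDS peak of Irf2bpl (chr12:86928824-86928974), with a log2 difference of 1.11 ± 0.41 (SE, adjusted p = 0.622 from edgeR), and the Parp8 CDS peak, with 0.60 ± 0.23 (adjusted p = 0.652). The 5′ peak of Socs1 gave a log2 difference of 6.4 under mock with an SE of 2.11, and an interaction of −6.20. After LPS the median genotype difference in ratio was 0.10 over member peaks and 0.01 over all peaks.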

How the data were processed

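Fragmented total RNA of WT and Adap-/- PMs was split into an input and an m6A antibody (IP) portion, and both were sequenced. The authors deposited raw read counts per merged peak, annotated on GRCm39. The submitters' processing notes name Bowtie2 2.2.8, MACS2 2.1.2 and DiffBind 2.8, without their roles. Counts were given only over peaks, so the input level of a gene is the sum over its peaks, and a gene without a peak was not analysed here. Depth, as reads on peaks, differed between libraries, and precision is set by 2 replicates per group.

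Groups came from the sample titles. Genes (input) and peaks (IP over input, as an interaction of library type and group) were tested over all groups in edgeR 4.0.16 (R 4.3.3, limma 3.58.1; quasi-likelihood test, TMM scaling, the filterByExpr filter at 10 reads and 15 in total, Benjamini-Hochberg adjustment over all genes or peaks). A call is an adjusted p under 0.05. Adjusted p-values in the text come from these fits. The same steps were tested on simulated data with the same spread for genes and peaks and no library set apart. The fitted coefficient of variation between replicates was 8.82% for genes and 30.6% for peaks. The simulation therefore does not cover the peak fits here. CPM were scaled by TMM, with 0.5 CPM added for log2 ratios. Intervals of read ratios are exact at 95% and cover counting error only. Named genes were calls with non-overlapping replicates (at most 10 per direction and comparison), a set of core pathway genes, and the peaks of lowest p. The members and lists were chosen with earlier results of these data known. Symbols of members in the file were replaced by the gene of its description where these disagreed (for example Ifi206 and Ifi213, listed under Pydc3). The fixed lists were matched by symbol without this step. The values of 1 member are not reported here, though it is included in counts over all members. Alternatives were DESeq2 1.42.0, RLE scaling, other filters, only the libraries compared, a replicate block, peaks of 1 gene only, and each replicate left out.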

Additional observations from a re-analysis of the deposited data

Results flagged for a closer look

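Of the members, 10 had an LPS response that differed between the genotypes by the interaction term of edgeR (adjusted p under 0.05), and in each the response was the smaller in Adap-/- PMs. The difference in log2 fold change was −1.92 for Ifi213, −1.46 for Cmpk2, −1.42 for Ifi206, −1.39 for Ifi205a, −1.38 for Ifih1, −0.98 for Ifi203, −0.94 for Slfn9, −0.88 for Samd9l, −0.75 for Slfn8 and −0.68 for Jak2. The contrast shares its libraries with the genotype comparisons under mock and after LPS. Cmpk2 and Slfn9 did not pass the test under mock and passed it after LPS, whereas Ifi213, Ifi206, Ifi203, Samd9l and Jak2 passed it under mock and not after LPS.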

How the results depend on the processing

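Each replicate left out in turn gave, for LPS in WT PMs, 48 to 50 members higher and 5 to 6 lower, and in Adap-/- PMs 48 and 5. After LPS 1 member was higher and 5 to 9 were lower in Adap-/- PMs, under mock 7 to 12 were higher and 0 to 18 lower, and in the interaction 0 to 10 were higher and 5 to 12 lower. Peaks lower with LPS in WT PMs numbered 0 to 14, the 14 without WT mock replicate 2, and every other count of called peaks stayed at 0. With an absolute log2 fold change above 1 required as well, 3 of 60 members fell with LPS in Adap-/- PMs, against 583 of 4742 genes. After LPS 0 members were higher and 1 lower in Adap-/- PMs, against 64 and 55 of all genes. Under mock 2 were higher and 0 lower, against 79 and 44. In the interaction 5 were lower, against 28. Under mock, DESeq2 called 1 member lower, and a fit of only the 4 libraries compared called 4. The shares of all genes in these fits are not given.

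For the IP-to-input ratio with LPS, DESeq2 called 47 peaks lower in WT and 20 in Adap-/- PMs. Of all peaks to which it gave an adjusted p, 3.83% of 4595 and 1.57% of 7058 were called lower. Without the 2 mock IP libraries the counts were 34 and 40, and with at least 10 input reads as well, chosen after seeing the data, 20 and 35. By unadjusted p with a log2 fold change above 1, 87 were lower and 1 higher in WT and 69 and 2 in Adap-/- PMs, 1 was higher in Adap-/- PMs after LPS, 1 higher under mock and 1 lower in the interaction. The causes were not tested, and the counts without the 2 mock IP libraries depend on the choice of the libraries left out. Pairing IP and input with a replicate block gave 2 lower peaks in WT PMs. In the input the replicate block kept 10 members lower in the interaction, and Ifi211 lost its call after LPS (log2 difference −0.44). Shares of all peaks or genes are not given for these block fits, nor for the peak fits with a replicate left out. Their counts cannot be set against a general rate. Replicate differences correlated between groups by −0.0776 to 0.164 in the input, and between IP and input by −0.098 to 0.0908, so the numbers were not taken as pairs. No gene named for its call changed direction in the comparison where it was called. Core pathway genes and peaks named for other reasons were not checked in this way. With 2 replicates per group, small differences may have gone uncalled. A call also does not mean that a difference exceeded the gap between replicates. Igtp was called under mock at a log2 difference of −0.87, while its WT mock replicates differed by 1.07.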
